A study of Mus musculus with 12 samples.

Results

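Collagens are the triple-helical proteins that build the extracellular matrix, and the collagen genes were followed here in the trigeminal nerve, which carries sensation from the face, with and without plexiform neurofibroma. The members were all rows of the deposited table whose symbol has the form of a mouse collagen chain gene, Col followed by a type number, the letter a and a chain number. The rule found 44 genes among the 47480 symbols of the table. They fell into 11 fibrillar genes, 9 network-forming genes of collagens IV, VIII and X, 9 fibril-associated (FACIT) genes, 6 genes of the microfibrillar collagen VI, 2 multiplexins, 4 transmembrane collagens and 3 others, collagens VII, XXVI and XXVIII.

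RNA was sequenced from 12 mouse samples, 6 labelled normal nerve and 6 labelled plexiform neurofibroma, a benign tumour of the nerve sheath. Both groups carried the Nf1 flox/flox alleles, so that Nf1, which encodes the RAS regulator neurofibromin, can be deleted where Cre recombinase is present. The normal nerves were PostnCre- and the tumours PostnCre+. The Cre carries the name of Postn, the gene for the matrix protein periostin, and the deletion is limited to cells in which that Cre is active. Genotype and tumour state coincide, so the effect of the allele and the effect of having a tumour cannot be told apart. Age, sex and litter are not in the labels, which also do not say that the samples came from separate animals.

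Fibrillar collagens assemble into the rope-like fibrils that give a tissue its tensile strength, while collagen IV forms the sheet-like network of basement membranes. In peripheral nerve, Schwann cells lie on a basement membrane, and fibroblasts of the endoneurium and epineurium surround the fibres with collagen fibrils. Neurofibromas are known as collagen-rich tumours.

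The libraries held 14160025 to 19989351 counts. Nf1 was lower in the tumours, at a log2 fold change of -0.65 (SE 0.16, edgeR adjusted p = 0.0179) with overlapping groups, and the count covers the whole gene, of which the floxed part is not known here. Of 17236 genes tested, 18.7% were called at an adjusted p under 0.05, and the median log2 fold change over them was -0.02. Of the markers that define nerve, the summed Schwann cell lineage markers were at 2217 to 3454 CPM (normalized counts scaled to a common library size) in normal nerve and 3550 to 4421 CPM in the tumours. The summed markers of myelin were at 3625 to 12784 CPM and 11188 to 20751 CPM in the same order. The 7 sensory neuron markers summed to 4487 to 8306 CPM in normal nerve and 5797 to 7315 CPM in the tumours. Each of the 7 was at 36.85 CPM or more in every library, and Isl1, a transcription factor gene, at 72.8 to 145 CPM. Whether neuron cell bodies were in the samples beside nerve fibres was not tested. None of the 7 was called higher or lower, and the part of neurons in the collagen results was not tested. Libraries that stood apart were normal nerve 2, with the lowest summed fibroblast and myelin markers, normal nerve 6, with the highest markers of the central nervous system (1298 CPM against at most 377 CPM elsewhere), and plexiform neurofibroma 1, with the highest markers of skeletal muscle (1402 CPM against at most 339 CPM elsewhere). These 3 libraries were chosen after the values were seen, and where a named gene's call changed without them, that value is given beside it.

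The collagen genes were higher in plexiform neurofibroma as a group of transcripts, although not uniformly. Summed over the 44 genes, collagen transcripts were at 775 to 1551 CPM in the normal nerves (mean 1195 ± 280.4, SD, n = 6) and 1813 to 4157 CPM in the tumours (mean 2766 ± 816, SD, n = 6), with no overlap between the groups. Of the 40 collagen genes that passed the filter on low counts, 19 were called higher, against 10% of all genes tested, and 1 was called lower, against 8.63% of all genes tested. The median log2 fold change over the 40 was 0.86, and 33 of them, or 82.5%, were above 0, where 47.5% of all tested genes were. For 12 of the 40 no normal nerve reached the lowest tumour, all of them called higher. Over all tested genes the groups did not overlap for 7.39%, and for 4.4% with the tumours above. These samples hold several cell types together. A change in the number of cells that make a collagen and a change in the RNA per cell therefore cannot be told apart.

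**Figure D1:**
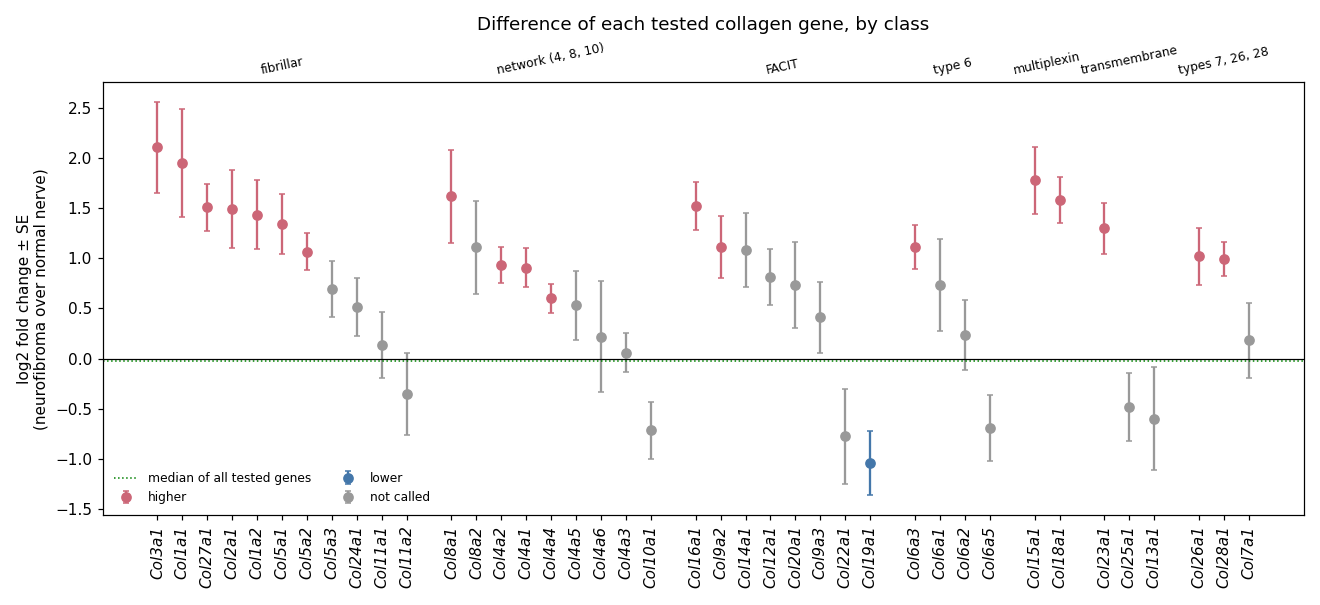
Log2 fold change (plexiform neurofibroma over normal nerve, edgeR, bars are 1 standard error, n = 6 libraries per group) of the 40 collagen genes tested, by class. The called rises run from 0.60 for Col4a4 to 2.10 for Col3a1, and Col19a1 at -1.04 is the 1 called fall.

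By level, the calls fell as follows. Of the 26 members with a mean of at least 10 CPM in either group, 16 were called higher. Of the 18 members under 10 CPM in both groups, 3 were called higher, and the 4 among them that were too low to test, Col6a4, Col6a6, Col9a1 and Col17a1, were each below 4 CPM in every library. Among the 19 higher members, plexiform neurofibroma 2 was the highest library for 17 and normal nerve 2 the lowest for 15. Plexiform neurofibroma 2 and normal nerve 6 were also high for Acta2 and Myh11, 2 of the 7 markers of pericytes and vascular smooth muscle. Acta2 was at 128 and 144 CPM, against at most 21.8 CPM in the other libraries. Myh11 was at 101 and 135 CPM, against at most 25.0 CPM. The list did not move together. In normal nerve 6, Notch3 was the highest of all libraries at 24.0 CPM, but Rgs5 was at 82.7 CPM, where all libraries ran from 65.8 to 187 CPM. Without plexiform neurofibroma 2 the edgeR count of collagens was 15 higher and 0 lower. Over all 17471 genes tested in that fit, 1220 were higher and 942 lower, where the fit with all libraries had 1730 and 1488 of 17236. Without normal nerve 2, normal nerve 6 and plexiform neurofibroma 1 the edgeR count of collagens was 22 higher and 0 lower. Over all 17348 genes tested in that fit, 2185 were higher and 2025 lower.

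The fibrillar collagens, the largest class, had the most calls, with 7 of 11 higher, none lower and a median log2 fold change of 1.34. Their share of calls and median were not the highest, as the multiplexins had 2 of 2 higher and a median of 1.68. Col3a1 (chromosome 1, 45311538 to 45349706, GRCm38, plus strand), the chain of collagen III in pliable connective tissue, rose most. Col3a1 measured 9.26 to 79.7 CPM in the normal nerves with a median of 60.5, and 103 to 414 CPM in the tumours with a median of 204.5. Every tumour lay above every normal nerve, and normal nerve 2 was far below the other normal nerves. The rise of Col3a1 was 4.3-fold (log2 2.10, SE 0.45, edgeR adjusted p = 0.00952).

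Collagen I, the main fibril former of most connective tissue, is built from the chains of Col1a2 and Col1a1, of which Col1a2 had the highest level of the family in both groups. Col1a2 (chromosome 6, 4504814 to 4541544, plus strand) measured 42.0 to 237 CPM (median 204) in normal nerve and 292 to 703 CPM (median 482) in the tumours, without overlap, a rise of 2.70-fold (log2 1.43, SE 0.35, edgeR adjusted p = 0.0153). Its partner Col1a1 (chromosome 11, 94936224 to 94953042, plus strand) measured 8.39 to 144 CPM (median 65.5) in normal nerve and 101 to 544.5 CPM (median 247) in the tumours. Normal nerve 6 lay above plexiform neurofibroma 5 for Col1a1, so that its groups overlapped where those of Col1a2 did not. Col1a1 rose 3.86-fold (log2 1.95, SE 0.54, edgeR adjusted p = 0.0271), and this call was lost without any 1 of normal nerves 4 and 5 and plexiform neurofibromas 2, 4 and 6, with an adjusted p of at most 0.062.

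Promoter windows of these genes are printed because both genes rose together while lying on different chromosomes, so that their letters can be compared. They come from RefSeq on GRCm38.p6 and run from 250 bases before to 50 bases after the RefSeq start, 5′ to 3′. For Col3a1 that start is the GENCODE start given above, and for Col1a2 it is position 4505618, which lies 804 bases downstream of the GENCODE start. Capitals mark every match, on either strand, to 5 short motifs. These were CCAAT, bound by nuclear factor Y, GGGCGG, known as the GC box, TATAAA, known as the box of the core promoter, TGANTCA, the AP-1 motif, and CATTCC, the TEAD motif. The Col1a2 window is chr6:4505368-4505667 on the plus strand, and the Col3a1 window is chr1:45311288-45311587 on the plus strand.
Col1a2: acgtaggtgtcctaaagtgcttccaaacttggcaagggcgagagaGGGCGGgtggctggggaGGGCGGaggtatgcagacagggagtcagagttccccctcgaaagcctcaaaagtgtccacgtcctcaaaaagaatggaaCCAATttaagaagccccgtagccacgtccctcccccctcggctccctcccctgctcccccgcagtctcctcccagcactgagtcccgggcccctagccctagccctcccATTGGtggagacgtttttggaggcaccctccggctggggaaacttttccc
Col3a1: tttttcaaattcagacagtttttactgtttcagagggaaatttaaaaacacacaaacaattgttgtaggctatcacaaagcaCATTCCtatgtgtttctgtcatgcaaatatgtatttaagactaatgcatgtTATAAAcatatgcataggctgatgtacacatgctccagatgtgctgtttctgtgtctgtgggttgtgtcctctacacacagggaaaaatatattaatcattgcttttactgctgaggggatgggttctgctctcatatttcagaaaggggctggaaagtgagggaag
The Col1a2 window held 2 matches to GGGCGG and 2 to CCAAT, of which 1 reads ATTGG because it lies on the other strand. The Col3a1 window held 1 match each to CATTCC and TATAAA, and so the windows shared none of the motifs searched. Windows were found for 35 of the 44 genes, 38 windows in all. GGGCGG was in 60.5% of them and in 35.7% of 32851 promoter windows of the same length, CCAAT in 34.2% and 37.4%, TATAAA in 13.2% and 13.6%, CATTCC in 13.2% and 14.7%, and TGANTCA in 2.63% and 7.81%. A match is a description of letters and not of binding.

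Collagen V chains, which join collagen I fibrils and limit their width, included both called and uncalled genes. Col5a1 (chromosome 2, 27886425 to 28039514) ran from 14.8 to 59.7 CPM (median 31.5) in normal nerve and from 62.3 to 129 CPM (median 75.8) in the tumours. Col5a2 (chromosome 1, 45374321 to 45503282) ran from 43.6 to 75.5 CPM (median 60.9) and from 91.0 to 164 CPM (median 124). In neither did the groups overlap, and the rises were 2.53-fold for Col5a1 (SE 0.30 log2, edgeR adjusted p = 0.0106) and 2.09-fold for Col5a2 (SE 0.18 log2, edgeR adjusted p = 0.00356). Col5a3, an alternative chain of collagen V, was the most abundant of the chains of collagen V in normal nerve per kilobase of transcript. It measured 44.4 to 139 CPM in normal nerve and 100.2 to 254 CPM in the tumours, with overlap. For Col5a3 the log2 fold change reached 0.69 (SE 0.28, with an edgeR adjusted p = 0.101), so it missed the threshold, and with DESeq2 the adjusted p was 0.0472. Without the 3 libraries that stood apart it passed at a log2 fold change of 0.73 (edgeR adjusted p = 0.0484).

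Col27a1 (chromosome 4, 63214004 to 63334991), a fibrillar collagen best known from cartilage, measured 12.4 to 26.6 CPM (median 17.3) in normal nerve and 28.7 to 77.3 CPM (median 45.0) in the tumours, without overlap. It rose 2.84-fold (SE 0.24 log2, edgeR adjusted p = 0.00272). Col2a1 (chromosome 15, 97975602 to 98004695), the main fibril chain of cartilage, stayed low in both groups, at 1.32 to 4.77 CPM (median 2.47) and 3.03 to 13.6 CPM (median 7.87). The groups overlapped, and the rise was 2.81-fold (SE 0.39 log2, edgeR adjusted p = 0.0208). Beside these cartilage-type collagens, the summed cartilage markers were at 29.6 to 51.1 CPM in normal nerve and 26.5 to 35.3 CPM in the tumours. Of the 3 cartilage markers tested none was higher and 1 was lower, and Matn1 and Matn3, which define cartilage, were below 0.2 CPM in every library.

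The remaining fibrillar genes were not called. Col11a1, a cartilage fibril chain, had means of 24.8 ± 15.99 CPM and 27.2 ± 6.01 CPM (SD, n = 6 per group; edgeR adjusted p = 0.803), with normal nerve 6 the highest of all 12 libraries at 55.2 CPM. Without the 3 libraries that stood apart its log2 fold change reached 0.79 (SE 0.20, with an edgeR adjusted p = 0.0171), so these libraries decide that call. Col11a2, its partner chain, had a log2 fold change of -0.35 (SE 0.41, edgeR adjusted p = 0.573), which turned to 0.27 without normal nerve 6. Col24a1, a minor fibrillar collagen, had a log2 fold change of 0.52 (SE 0.29, edgeR adjusted p = 0.217).

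**Figure D2:**
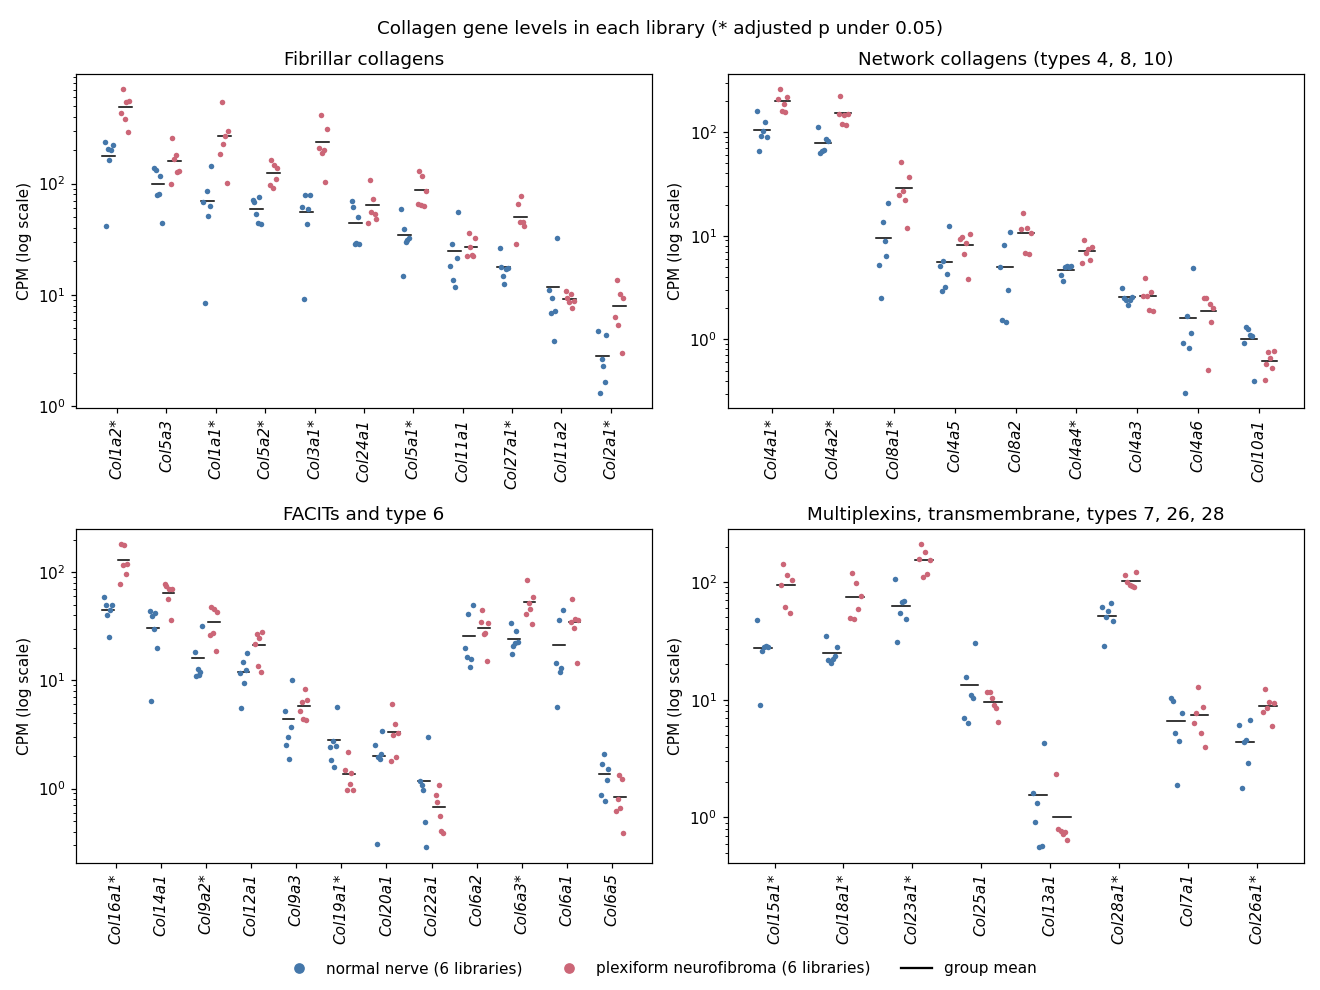
Level in CPM (log axis) of collagen genes in each library, with 6 normal nerves and 6 plexiform neurofibromas per gene. Col1a2 is the highest in both groups, at 42.0 to 237 CPM and 292 to 703 CPM, and the single low point in normal nerve for Col1a1, Col1a2, Col3a1 and Col15a1 is normal nerve 2.

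Of the 9 network collagens, 4 were called higher and none lower, with a median log2 fold change of 0.60. Col4a1 (chromosome 8, 11198423 to 11312826, minus strand) and Col4a2 (chromosome 8, 11312805 to 11449287, plus strand) encode the chains of the collagen IV found in nearly every basement membrane. Col4a1 measured 65.3 to 158 CPM (median 97.0) in normal nerve and 155 to 259 CPM (median 197) in the tumours, with normal nerve 1 above plexiform neurofibroma 5. Col4a2 measured 63.2 to 112.5 CPM (median 74.6) and 118 to 225 CPM (median 147.5), without overlap. The rises were close in size, 1.88-fold for Col4a1 (SE 0.19 log2, edgeR adjusted p = 0.00877) and 1.91-fold for Col4a2 (SE 0.18 log2, edgeR adjusted p = 0.00564).

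Col4a1 and Col4a2 are read in opposite directions from a shared start region, and the annotated genes overlap there (a gap of -22 bases). The stretch that lies in the windows of both is chr8:11312777-11312854, printed on the plus strand with motif matches in capitals, because the chains on either side of it moved by nearly the same amount.
Col4a1 and Col4a2: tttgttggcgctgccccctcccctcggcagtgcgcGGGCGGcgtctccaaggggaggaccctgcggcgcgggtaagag
It is 78 bases long and held 1 match, to GGGCGG. Whether counting used strand is not given in the sources used here, so reads from the overlapping ends could have been shared between the genes. Within each library the count of Col4a2 was 0.652 to 0.969 times that of Col4a1 in normal nerve and 0.675 to 0.869 times in the tumours, and the mean log2 ratio differed by -0.01 between the groups (two-sided exact permutation test, p = 0.931).

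Col4a3 and Col4a4, whose chains are known from the basement membranes of kidney, lung and inner ear, form another head-to-head pair and were low. Col4a4 (chromosome 1, 82448423 to 82586849, minus strand) measured 3.66 to 5.14 CPM (median 4.97) in normal nerve and 5.48 to 9.05 CPM (median 7.12) in the tumours, without overlap. It rose 1.52-fold (SE 0.15 log2, edgeR adjusted p = 0.0156). Col4a3 (chromosome 1, 82586921 to 82722059, plus strand) had means of 2.54 ± 0.331 CPM and 2.65 ± 0.754 CPM (SD, n = 6 each), a log2 fold change of 0.06 (SE 0.19, edgeR adjusted p = 0.852). The log2 ratio of Col4a3 to Col4a4 was lower in the tumours by a difference of -0.56 (two-sided exact permutation p = 0.0325, adjusted over 14 ratios p = 0.227), which misses the threshold. A stretch of the RefSeq window of Col4a4, chr1:82586800-82586970, is printed on the minus strand for comparison with the first pair. It was cut just inside Col4a3, counted from the GENCODE start of that gene, and no RefSeq window of Col4a3 was used.
Col4a3 and Col4a4: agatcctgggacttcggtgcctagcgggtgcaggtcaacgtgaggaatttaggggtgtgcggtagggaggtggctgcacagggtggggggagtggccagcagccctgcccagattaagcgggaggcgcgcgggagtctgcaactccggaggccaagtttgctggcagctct
Its 171 bases held 0 matches to the 5 motifs, and the annotated genes are 71 bases apart.

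Col8a1 (chromosome 16, 57624258 to 57754737), a short-chain collagen of vessel walls and corneal membranes, measured 2.49 to 20.5 CPM (median 7.66) in normal nerve and 12.0 to 51.5 CPM (median 25.8) in the tumours. The groups overlapped, and it rose 3.07-fold (SE 0.46 log2, edgeR adjusted p = 0.0315). The call was lost without any 1 of normal nerves 1, 4 and 5 and plexiform neurofibromas 2, 4 and 6, with an adjusted p of at most 0.0716. Its partner Col8a2 missed the threshold with a log2 fold change of 1.11 (SE 0.46, edgeR adjusted p = 0.11) and passed it without normal nerve 6 (log2 1.48, edgeR adjusted p = 0.0272). Col4a5, a further collagen IV chain, likewise had a log2 fold change of 0.53 (edgeR adjusted p = 0.29) that became 0.92 without normal nerve 6 (edgeR adjusted p = 0.0181). Col10a1, the collagen of hypertrophic cartilage, had a log2 fold change of -0.71 (edgeR adjusted p = 0.0894) at a level near 1 CPM, and -0.88 without normal nerve 6 (edgeR adjusted p = 0.0138). Nt5dc1 overlaps Col10a1 on the other strand, so reads of the overlap could belong to either. Col4a6, at 1.62 CPM and 1.87 CPM, was not called (edgeR adjusted p = 0.808). Endothelial markers summed to 98.3 to 200 CPM in normal nerve and 85.7 to 134 CPM in the tumours, and markers of pericytes and vascular smooth muscle to 100.2 to 419 CPM and 188 to 497 CPM. Of the 7 endothelial markers tested none was higher and 1 was lower, and of the 7 mural markers 1 was higher. Their part in the network collagens was not tested.

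Both multiplexins, which carry chondroitin or heparan sulfate chains and sit at the outer face of basement membranes, rose without overlap. Col15a1 (chromosome 4, 47208161 to 47313167) measured 8.95 to 47.2 CPM (median 27.95) in normal nerve and 54.2 to 142 CPM (median 99.01) in the tumours, a rise of 3.42-fold (SE 0.34 log2, edgeR adjusted p = 0.00584). Col18a1 (chromosome 10, 77052178 to 77166548), the precursor of endostatin, measured 20.7 to 34.7 CPM (median 22.7) and 48.6 to 118.5 CPM (median 67.3), a rise of 2.99-fold (SE 0.23 log2, edgeR adjusted p = 0.00205). The low library for Col15a1 was normal nerve 2, and plexiform neurofibroma 2 was the highest for both genes. Neither call was lost in any of the 12 fits that left out 1 library. Slc19a1 overlaps Col18a1 on the other strand, so reads of the overlap could belong to either.

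Of the 9 FACIT genes, which decorate the surface of fibrils, 8 were tested, and 2 were higher and 1 lower. Col16a1 (chromosome 4, 130047840 to 130099283) measured 25.4 to 58.9 CPM (median 47.1) in normal nerve and 78.2 to 183 CPM (median 118) in the tumours, without overlap, a rise of 2.87-fold (SE 0.24 log2, edgeR adjusted p = 0.0027). Col9a2 (chromosome 4, 121039385 to 121055322), a chain of the collagen that coats collagen II fibrils, measured 11.1 to 31.6 CPM (median 12.3) and 18.6 to 48.0 CPM (median 35.4). Normal nerve 6 stood above the other normal nerves for Col9a2, and the groups overlapped. Col9a2 rose 2.17-fold (SE 0.31 log2, edgeR adjusted p = 0.0268), a call lost without any 1 of normal nerves 2, 4 and 5 and plexiform neurofibromas 2, 4 and 6 (adjusted p at most 0.0644). Its partner chains did not share the call, with Col9a3 at 4.40 CPM and 5.85 CPM (edgeR adjusted p = 0.427) and Col9a1 too low to test. Without normal nerve 6, Col9a3 passed (log2 0.84, edgeR adjusted p = 0.0259). Tcfl5 overlaps Col9a3 on the other strand, so reads of the overlap could belong to either.

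Col19a1 (chromosome 1, 24261890 to 24587472), a scarce FACIT collagen, was the 1 collagen gene that fell. It measured 1.60 to 5.71 CPM (median 2.47) in normal nerve and 0.971 to 2.19 CPM (median 1.25) in the tumours, with overlap. The fall was -1.04 on the log2 scale (SE 0.32, with an edgeR adjusted p = 0.0392). The call was lost in 7 of the 12 fits that left out 1 library, those without normal nerves 3 and 5 and plexiform neurofibromas 1, 2, 4, 5 and 6 (adjusted p at most 0.0867). Without the 3 libraries that stood apart it was lost as well, at -0.80 (edgeR adjusted p = 0.0632). Col12a1 and Col14a1, which bind collagen I fibrils, came just short of the threshold. Col12a1 had means of 12.0 ± 4.29 and 21.1 ± 6.81 CPM (SD, n = 6 per group) with an edgeR adjusted p of 0.0579. Col14a1 had means of 30.3 ± 14.7 and 64.1 ± 15.6 CPM (SD, n = 6 per group) with an edgeR adjusted p of 0.0584. With DESeq2 the adjusted p was 0.0189 for Col12a1 and 0.0123 for Col14a1, and in edgeR fits without normal nerve 6 it was 0.0243 for Col12a1 and without normal nerve 2 it was 0.0278 for Col14a1. The log2 fold change of Col14a1 went from 1.08 to 0.66 without the 3 libraries that stood apart, where it passed the threshold (edgeR adjusted p = 0.0375). Col20a1 and Col22a1, both below 4 CPM on average in each group, were not called.

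Collagen VI, the beaded microfibril between cells and fibrils, had 4 of its 6 genes tested and 1 called. Col6a3 (chromosome 1, 90765923 to 90843971) measured 17.6 to 34.2 CPM (median 22.5) in normal nerve and 33.2 to 85.1 CPM (median 49.4) in the tumours. Only normal nerve 1 and plexiform neurofibroma 5 overlapped, and the rise was 2.16-fold (SE 0.22 log2, edgeR adjusted p = 0.0066). The chains that complete the trimer were more scattered. Col6a1 (chromosome 10, 76708792 to 76726168) measured 14.5, 5.70, 36.1, 12.1, 13.1 and 45.1 CPM in normal nerves 1 to 6 and 14.6 to 56.5 CPM in the tumours, with a log2 fold change of 0.73 (SE 0.46, edgeR adjusted p = 0.271). Col6a2 (chromosome 10, 76595762 to 76623630) measured 19.9, 16.5, 40.9, 13.4, 15.8 and 49.8 CPM in the same normal nerves and 15.2 to 45.2 CPM in the tumours, with a log2 fold change of 0.24 (SE 0.35, edgeR adjusted p = 0.668). Normal nerves 3 and 6 were high for both of these chains and not for Col6a3.

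Within a library, Col6a2 and Col6a1 kept a different balance in the groups. The count of Col6a2 was 1.10 to 2.89 times that of Col6a1 in normal nerve and 0.735 to 1.04 times in the tumours, without overlap. The mean log2 ratio differed by -0.62, and this was the 1 of 14 chain ratios whose adjusted p passed the threshold (two-sided exact permutation p = 0.00216, the smallest the design gives, adjusted p = 0.0303). Normal nerve 2 held the highest ratio, and without it the difference was -0.40 (adjusted p = 0.0606). The adjusted p was between 0.0909 and 0.121 without any 1 tumour, where the differences ran from -0.66 to -0.56. Without the 3 libraries that stood apart the difference was -0.46. With 4 normal nerves and 5 tumours left there are 126 splits, and the adjusted p of a single ratio cannot go below 0.111, so that comparison gives a value and no test. Among the other ratios, Col1a1 to Col1a2 was 1.51 times as high in the tumours (p = 0.0649, adjusted p = 0.303, exact permutation), and Col5a3 to Col5a1 was 0.631 times as high (p = 0.113, adjusted p = 0.394, exact permutation). The other 11 ratios had an adjusted p of at least 0.227.

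**Figure D3:**
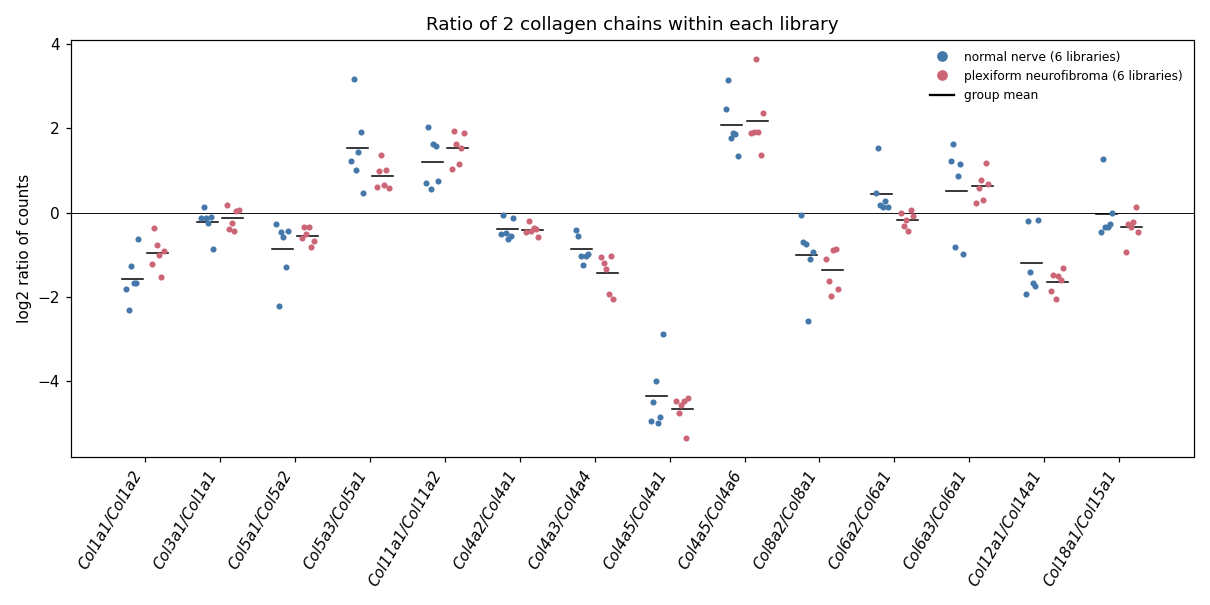
Log2 ratio of the counts of 2 collagen chains within each library (0.5 counts added to each), with 6 normal nerves and 6 plexiform neurofibromas per pair and the group means as lines. Col6a2/Col6a1 is the pair whose groups do not overlap, at 0.14 to 1.53 in normal nerve and -0.44 to 0.06 in the tumours.

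Of the 4 transmembrane collagens, which are anchored in the plasma membrane, 3 were tested and Col23a1 was called. Col23a1 (chromosome 11, 51289920 to 51583918) measured 31.1 to 105.5 CPM (median 60.8) in normal nerve and 109.6 to 210.3 CPM (median 155) in the tumours. The groups did not overlap, although normal nerve 1 came within 5 CPM of plexiform neurofibroma 3. It rose 2.46-fold (SE 0.25 log2, edgeR adjusted p = 0.00653). Col25a1, a neuronal collagen known from motor axon growth in mouse, had means of 13.4 ± 8.91 CPM and 9.60 ± 1.98 CPM (SD, n = 6 per group; edgeR adjusted p = 0.333), and its log2 fold change of -0.48 turned to 0.10 without the 3 libraries that stood apart. Col13a1, a collagen of the neuromuscular junction, was at 1.54 CPM and 1.008 CPM (edgeR adjusted p = 0.428). Its highest library was normal nerve 6 at 4.25 CPM, and the highest tumour was plexiform neurofibroma 1, the library with the highest muscle markers, at 2.36 CPM. Normal nerve 3, the next highest in muscle markers at 339 CPM, had Col13a1 at 1.32 CPM. The part of muscle in these values was not tested. Col17a1, the collagen of epidermal hemidesmosomes, was at most 0.63 CPM in every library, and the summed keratinocyte markers were at 0.921 to 5.04 CPM.

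Col28a1 (chromosome 6, 7997808 to 8192617), a collagen known from around Schwann cells in mouse peripheral nerve, showed the tightest rise among the abundant members. It measured 28.5 to 66.4 CPM (median 53.5) in normal nerve and 90.8 to 123 CPM (median 97.0) in the tumours, without overlap. The rise was 1.98-fold (SE 0.17 log2, edgeR adjusted p = 0.0035), the smallest standard error among the called members of at least 10 CPM. Col26a1 measured 1.78 to 6.77 CPM (median 4.45) and 6.00 to 12.4 CPM (median 8.95), with overlap, and rose 2.02-fold (SE 0.28 log2, edgeR adjusted p = 0.0255). That call was lost without any 1 of normal nerve 5 and plexiform neurofibromas 2, 4 and 6 (adjusted p at most 0.0603). Col7a1, the collagen of the anchoring fibrils of skin, was not called (6.57 CPM and 7.48 CPM, edgeR adjusted p = 0.759).

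Levels of different genes were compared per kilobase of the longest annotated transcript. In normal nerve Col1a2 led at 33.4 ± 13.4 CPM per kb, followed by Col5a3 at 16.1 ± 6.00, Col4a1 at 15.9 ± 4.87, Col4a2 at 12.3 ± 2.91, Col28a1 at 12.2 ± 3.18, Col1a1 at 11.8 ± 7.51, Col23a1 at 11.1 ± 4.44 and Col3a1 at 9.95 ± 4.74 (SD, n = 6). Neighbours in this order below Col1a2 differed by less than the larger of their SDs. In the tumours Col1a2 led again at 90.4 ± 27.3 CPM per kb, and Col1a1 at 45.5 ± 25.5 and Col3a1 at 42.8 ± 19.6 took the next ranks, ahead of Col4a1 at 29.9 ± 5.94 and Col23a1 at 27.3 ± 6.70 (SD, n = 6). Col1a1 and Col3a1 thus moved from ranks 6 and 8 to ranks 2 and 3, with wide spreads in both groups, and below Col1a2 the named neighbours in the tumour order again differed by less than the larger of their SDs.

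The classes were also compared by their share of the collagen transcripts of a library. Per kilobase, fibrillar genes held 47.9% ± 1.18 of the collagen transcripts in normal nerve and 52.6% ± 3.20 in the tumours, network genes 16.3% ± 1.23 and 13.6% ± 1.52, FACIT genes 10.95% ± 1.34 and 10.8% ± 1.24, and collagen VI 6.27% ± 2.54 and 4.16% ± 0.563 (SD, n = 6 each). Multiplexins held 4.75% ± 0.698 and 6.55% ± 0.785, and transmembrane collagens 6.62% ± 1.06 and 6.17% ± 0.876 (SD, n = 6 each). The libraries of the groups overlapped in every class, and these shares are a description without a test.

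**Figure D4:**
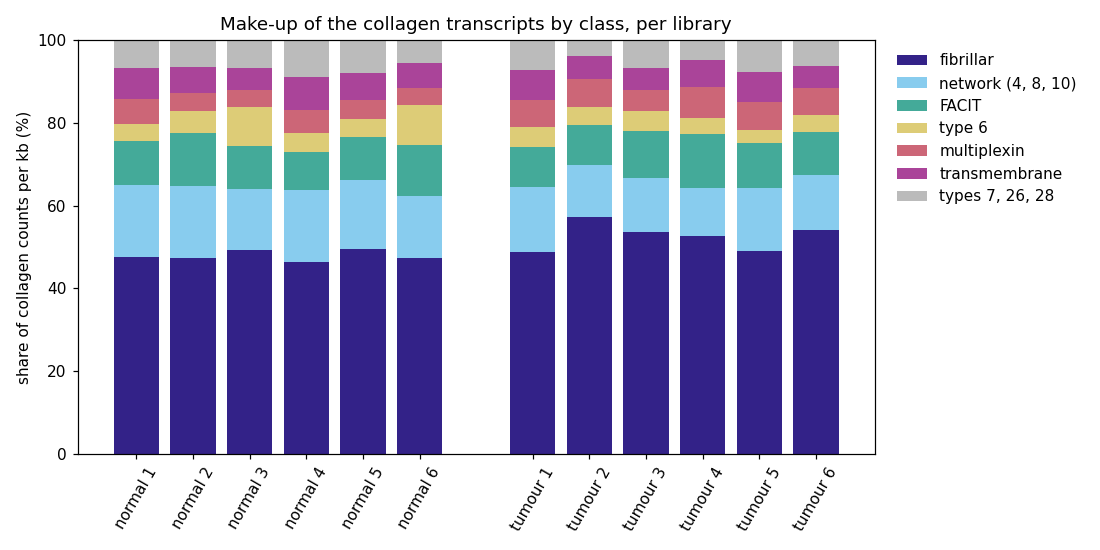
Share of the summed collagen counts per kb of transcript held by each class (percent of the library's collagen total, stacked to 100) in 6 normal nerves and 6 plexiform neurofibromas. Fibrillar genes hold about the same part in the 6 normal nerves (47.9% ± 1.18) and a slightly larger and more variable part in the tumours (52.6% ± 3.20).

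Genes that make, export and cross-link collagen, and the receptors that bind it, were read from a list of 43, of which 40 were tested. Of these, 16 were higher, where 10% of all genes tested were, and 1 was lower. Of the 18 chaperone and hydroxylation genes, 10 were higher and none lower. Ppib, a prolyl isomerase of the endoplasmic reticulum, went from 43.5 to 54.4 CPM in normal nerve to 61.7 to 73.4 CPM in the tumours, without overlap, a 1.40-fold rise (edgeR adjusted p = 0.00163). Fkbp14, another isomerase, rose 1.39-fold (edgeR adjusted p = 0.00357), and P4hb, a subunit of prolyl 4-hydroxylase, rose 1.26-fold (edgeR adjusted p = 0.00558). P3h2, which hydroxylates prolines of collagen IV, rose most of these, with means of 4.94 ± 2.24 and 15.8 ± 4.25 CPM (SD, n = 6 per group) and a fold of 3.19 (edgeR adjusted p = 0.00489). In none of these 4 genes did the groups overlap.

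Among the 5 cross-linking genes, the lysyl oxidases, 3 rose. Lox went from 10.8 to 18.1 CPM in normal nerve to 28.8 to 74.2 CPM in the tumours, without overlap (edgeR adjusted p = 0.00116). Loxl3 rose 1.63-fold (edgeR adjusted p = 0.0108) and Loxl2 2.20-fold (edgeR adjusted p = 0.0124). Of 8 genes of export and propeptide cleavage, Pcolce, which enhances removal of the C-propeptide, rose 2.58-fold (edgeR adjusted p = 0.0364). Adamts3, an N-propeptide protease, was lower in the tumours, with means of 4.94 ± 1.61 and 2.61 ± 0.619 CPM (SD, n = 6 per group) and an edgeR adjusted p of 0.0188. Of 9 receptor genes, 2 rose, Itgb1, the common beta subunit of the collagen-binding integrins, at 1.23-fold (edgeR adjusted p = 0.0327) and Lair1, an inhibitory leukocyte receptor for collagen, at 1.89-fold (edgeR adjusted p = 0.0362). The calls of Itgb1 and Lair1 were each lost in 7 of 12 fits that left out 1 library, and that of Pcolce in 6 (adjusted p at most 0.08 over the 3 genes). Without the 3 libraries that stood apart Itgb1 was at a log2 fold change of 0.22 (edgeR adjusted p = 0.0919). The summed macrophage markers were at 40.0 to 181 CPM in normal nerve and 124 to 256 CPM in the tumours, and 2 of 7 were higher; their part in Lair1 was not tested.

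Among the markers of cell types known to make collagen, some sums were higher in the tumours and others were not. The 8 fibroblast markers summed to 186 to 990 CPM in normal nerve and 1060 to 2108 CPM in the tumours, without overlap. Only Dcn and Lum, which hold most of that sum, were called higher, 2 of 8, and Fbln1 was at 34.2 CPM in normal nerve 6 and 1.49 to 9.22 CPM in the tumours. Normal nerve 2, the lowest library for most called collagens, was also the lowest in fibroblast markers. The summed Schwann cell lineage markers did not overlap between the groups either. Of these 8 markers 4 were higher, and of 7 myelin markers 3 were. Perineurium markers summed to 163 to 224 CPM and 169 to 225 CPM in the same order, with 1 of 5 tested higher. Bone markers summed to 22.1 to 44.1 CPM and 27.1 to 39.4 CPM, with 1 of 5 tested higher. The part of these cell types in the collagen results was not tested.

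**Figure D5:**
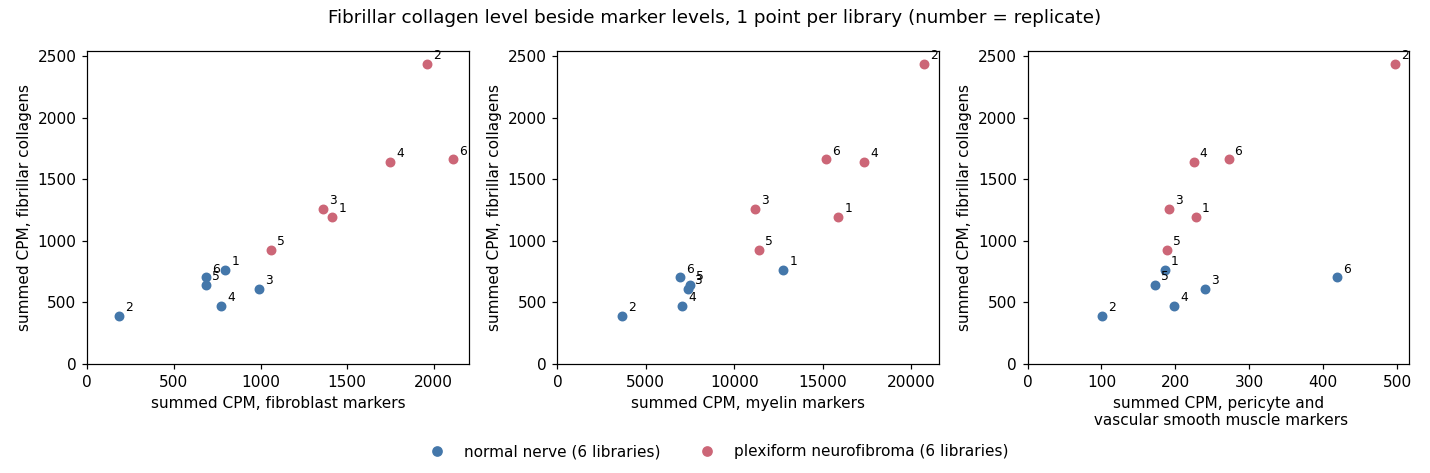
Summed level of the fibrillar collagens against the summed level of the fibroblast, myelin and mural markers, in CPM on linear axes. Points are the 6 normal nerves and 6 plexiform neurofibromas. Fibroblast markers do not overlap between the groups (186 to 990 CPM and 1060 to 2108 CPM). Myelin markers (3625 to 12784 CPM and 11188 to 20751 CPM) and mural markers (100.2 to 419 CPM and 188 to 497 CPM) do.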

How the data were processed

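RNA from 12 trigeminal nerve samples (6 normal nerve, 6 plexiform neurofibroma) was analysed from 1 table of estimated counts per gene symbol that the authors deposited without normalization. These expected counts were 84.1% to 86.5% whole numbers per library (within 0.001). Per the labels' protocols, polyA RNA libraries came from a stranded KAPA kit, although the label also lists a TruSeq kit. The submitters' processing notes list build mm10 and, without role or order, Salmon 0.60, STAR 2.4.2a, DESeq2 and FastQC. For the counting, annotation and strand setting are not given in the sources used, so antisense, overlapping and near-identical genes cannot be separated.

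The estimated counts were rounded to whole numbers and tested in edgeR 4.0.16 (R 4.3.3) by quasi-likelihood (filterByExpr, TMM factors, robust fit, no covariate). Benjamini-Hochberg adjustment ran over all 17236 genes tested, and an adjusted p under 0.05 is a call. CPM is per TMM-scaled library size over the tested genes. Chain ratios, with 0.5 counts added to each chain, were set against each other by an exact permutation test (two-sided, 924 splits), adjusted over 14 pairs. Libraries held 14160025 to 19989351 counts, so members near 1 CPM rest on few counts. The p-values measure the spread between these samples, which are not stated to be separate animals. Replicate numbers follow accession order and only name samples.

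Coordinates are 1-based, from GENCODE vM21 on GRCm38, the assembly of mm10. Of 47480 symbols, 45187 matched it directly and 620 through an older symbol. Promoter sequences are those of RefSeq on GRCm38.p6.

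Alternatives were upper-quartile or RLE factors, no filter, a minimum of CPM above 1 in 6 or more libraries, a transcript length correction (lowess, span 0.3), DESeq2 1.42.0, voom of limma 3.58.1 with sample weights, 2 counts added per chain, and each library left out. A fit without 3 libraries was added once the data had been seen. Simulated data were used to check the edgeR step. Named genes were all called members, members at a mean of at least 10 CPM, Nf1, and up to 4 called genes of each biosynthesis subgroup by p-value; low members outside that rule are named for completeness. The members, lists and tests were chosen with earlier results of these data known.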

Additional observations from a re-analysis of the deposited data

Results flagged for a closer look

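In 108 groups of 6 values (collagen CPM and chain ratios), 12 had a highest or lowest library whose gap to its neighbour exceeded Dixon's 95% critical value for 6 samples, where chance flags about 5% of groups. Normal nerve 6 held 7 of them. It was high for Col11a2 at 32.6 CPM (next 11.1), Col13a1 at 4.25 CPM (next 1.62), Col19a1 at 5.71 CPM (next 2.76), Col22a1 at 2.99 CPM (next 1.17), Col4a5 at 12.3 CPM (next 5.76), Col4a6 at 4.85 CPM (next 1.67) and Col9a2 at 31.6 CPM (next 18.2). The summed markers of the central nervous system were at 1298 CPM in this library, and their part in these values was not tested.

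Normal nerve 2 stood apart in the log2 ratio of Col6a2 to Col6a1, at 1.53 (next 0.458), and of Col18a1 to Col15a1, at 1.27 (next 0.0034). Among the tumours, plexiform neurofibroma 1 was high for Col13a1 at 2.36 CPM (next 0.802), plexiform neurofibroma 2 for Col4a2 at 225 CPM (next 151), and plexiform neurofibroma 5 was low in the log2 ratio of Col4a5 to Col4a1, at -5.35 (next -4.74).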

How the results depend on the processing

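Of the 19 higher collagens, 15 were called in every fit run, and Col1a1, Col8a1, Col9a2 and Col26a1 were each lost in some fits that left out 1 library. The count called higher was 19 with RLE factors, upper-quartile factors or the CPM filter, 16 with no filter and 21 with the length correction. It was 23 with DESeq2, 24 with limma-voom, 22 without the 3 libraries that stood apart, and 15 to 23 with 1 library left out. Over all genes tested, 1730 of 17236 were called higher in the reported fit and 1364 of 32206 with no filter. The all-gene count was 1461 of 16985 with the length correction, 2226 of 17236 with DESeq2 and 2878 of 17236 with limma-voom. Without the 3 libraries it was 2185 of 17348, and with 1 library left out 1092 to 2544. The count of collagens called lower, 1 in the reported fit, was 0 with no filter, 0 with the length correction and 2 with limma-voom. It was 0 without the 3 libraries and 0 to 2 with 1 library left out. Over all genes tested the count called lower was 1488 in the reported fit, 902 with no filter and 1107 with the length correction. It was 2707 with limma-voom, 2025 without the 3 libraries and 801 to 2487 with 1 library left out. For the biosynthesis and receptor genes the count called lower was 3 with limma-voom, 3 without the 3 libraries and 1 to 4 with 1 library left out (4 without normal nerve 6), and the count higher 12 to 18 with 1 library left out. The cause was not tested.

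Directions turned only for genes and ratios that were not called. With 1 library left out, log2 fold changes ran from -3.8e-05 to 0.53 for Col11a1, -0.52 to 0.27 for Col11a2, -1.04 to 0.0034 for Col13a1, -0.089 to 0.14 for Col4a3 and -0.044 to 0.36 for Col7a1. Under limma-voom Col11a2 was at 0.29 and Col4a3 at -0.022, and without the 3 libraries Col11a2 was at 0.18 and Col25a1 at 0.10. Differences in log2 ratio ran with 1 library left out from -0.057 to 0.057 for Col4a2/Col4a1, -0.18 to 0.34 for Col6a3/Col6a1, -0.041 to 0.16 for Col3a1/Col1a1 and -0.19 to 0.32 for Col4a5/Col4a6. Without the 3 libraries they were 0.15 for Col4a2/Col4a1, -0.047 for Col3a1/Col1a1, 0.10 for Col12a1/Col14a1 and 0.12 for Col18a1/Col15a1.

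No paired analysis was possible because the labels give no replicate numbers that groups share. Genes near 1 CPM rest on few counts, and 4 members were not tested.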
